A study of Mus musculus with 6 samples.

Results

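The genes described here encode 10 chains of the receptors through which macrophages sense interferons and interleukins, namely Ifnar1, Ifnar2, Ifngr1, Ifngr2, Il10ra, Il10rb, Il4ra, Il13ra1, Il6ra and Il17ra. They were chosen by gene name and are 10 of the 54532 genes in the deposited expression table. The RNA sequenced came from peritoneal macrophages of wild-type male C57BL/6J mice aged 6 to 8 weeks, collected by lavage 5 days after an intraperitoneal injection of 1 mL of 3% thioglycolate, which draws macrophages into the peritoneal cavity. Control cells were untreated. Model cells received LPS (500 ng/mL), a component of the bacterial outer membrane, for 5.5 h and then ATP (2 mM) for 0.5 h, a sequence that activates the NLRP3 inflammasome. In MUS, muscone (50 μM), a macrocyclic ketone of musk, was added 0.5 h before ATP to cells otherwise treated like Model. Each group had 2 libraries.

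Interferons and most interleukins bind receptors made of different chains, whose cytoplasmic tails carry kinases of the JAK family that phosphorylate STAT transcription factors. A chain is often shared, as IL-10Rβ is by the receptors for IL-10, IL-22 and the lambda interferons, and IL-4Rα by those for IL-4 and IL-13. IL-17RA differs from the others, as it signals through the adaptor Act1 rather than through JAK kinases.

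Values are FPKM, fragments scaled to gene length and library size, so levels can be compared between genes on a per-length scale. The number of fragments on each gene was recovered from the table, and the totals on genes were 15742538 and 17135442 for Control, 15529580 and 15526321 for Model, and 16222724 and 16481372 for MUS. Each value of a receptor gene rested on 147 to 8417 fragments. Control replicate 2 stood apart from Control replicate 1. All 8 type I interferon targets followed here were higher in Control replicate 2, by 2.46 to 28.8 times, as in Ifit1 with 1.25 FPKM in replicate 1 and 36.1 FPKM in replicate 2. Of the 10 receptor genes, 7 were higher and 3 were lower in Control replicate 2, with ratios between 0.500 and 2.15 and a median of 1.31. Of the 9667 tested genes above 0 in Control replicate 1, 5122 were higher and 4545 were not, with a median ratio of 1.03. In bulk samples such as these, fewer cells expressing a gene and less RNA of it per cell cannot be told apart.

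Model vs. Control asks what LPS and ATP changed. Of the 10 receptor genes, 5 were upregulated DEGs (Il13ra1, Il4ra, Il17ra, Ifnar2 and Il10ra), against 9.5% of the 9794 genes tested, and 2 were downregulated DEGs (Il6ra and Ifngr1), against 5.56%. A DEG had an adjusted p of at most 0.05 (limma on log2(FPKM + 1), two-sided, Benjamini-Hochberg over 9794 genes whose mean FPKM reached 1) and an absolute log2 fold change over 1. All 10 receptor genes passed that FPKM filter. Their median log2 fold change was 1.09, where that of all genes tested was 0.04. The Model libraries lay above both Control libraries for 8 receptor genes, as they did for 32.6% of all genes tested, and below both for 2, as for 28.5%. For 1 gene compared between 2 and 2 libraries, the smallest p of an exact permutation is 0.333, so the adjusted p-values depend on how limma pools variance over genes. When low values were not filtered out, 0 receptor genes were DEGs, where all genes gave 228 upregulated and 32 downregulated DEGs. With only Model and Control fitted, 3 receptor genes were upregulated and 0 were downregulated DEGs, where all genes gave 541 and 256. Without Control replicate 1, 2 receptor genes were upregulated DEGs and 1 was a downregulated DEG, where all genes gave 534 and 229. Without Control replicate 2 the receptor counts were 6 and 2, where all genes gave 1237 and 840.

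**Figure D1:**
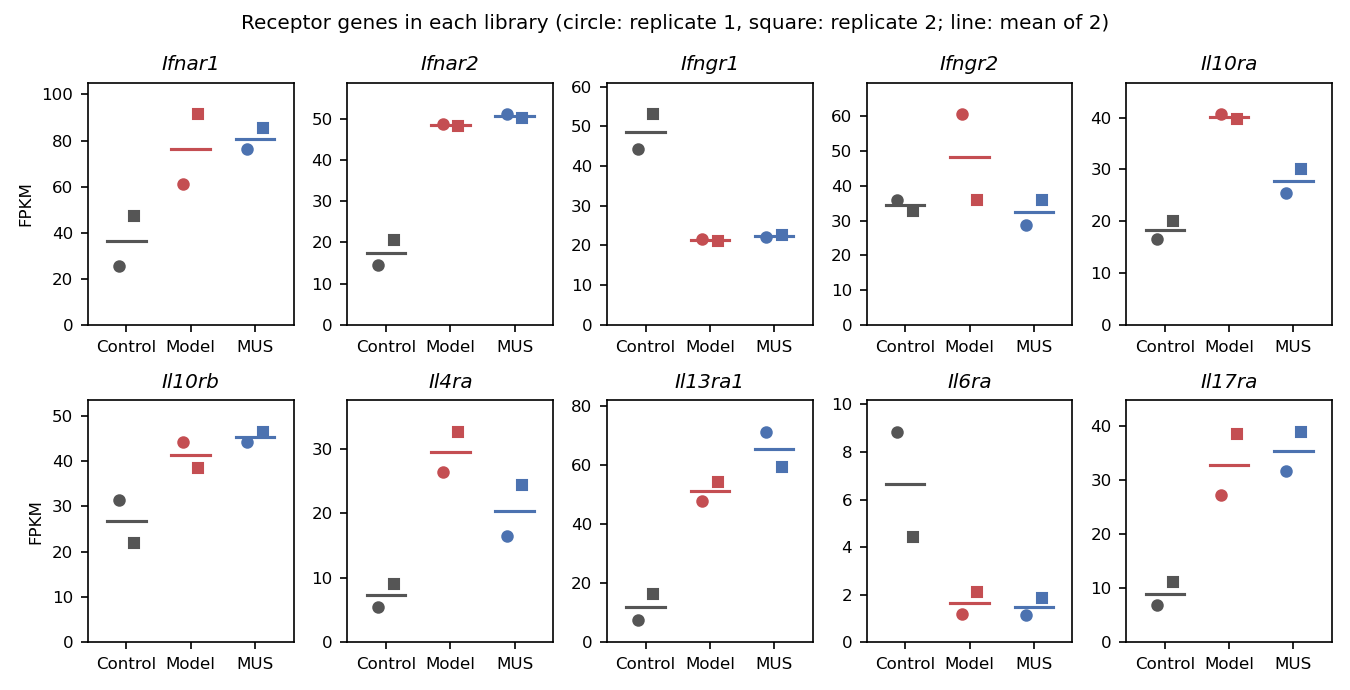
FPKM of the 10 receptor genes (y axis, linear, from 0) in the Control, Model and MUS libraries, with replicate 1 as a circle, replicate 2 as a square and the group mean (n = 2) as a line. Ifngr1 and Il6ra sit lower in Model and MUS than in Control, and Il10ra and Il4ra sit lower in MUS than in Model. Ifngr2 has a lower mean in MUS than in Model, but replicate 2 has 35.9 FPKM in both groups.

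Ifnar1 and Ifnar2 encode the chains of the receptor for type I interferons, with IFNAR2 as the chain that binds interferon with high affinity. Ifnar2 (ENSMUSG00000022971, GRCm38 chr16:91372783-91405589, plus strand) had 14.6 and 20.5 FPKM in the Control libraries, 48.7 and 48.1 FPKM in Model, and 51.1 and 50.1 FPKM in MUS. Every Model and MUS library was thus above both Control libraries, and the replicates within Model and within MUS were close together. In Model vs. Control the log2 fold change of Ifnar2 was 1.43 with a standard error of 0.28 (limma adjusted p = 0.0163). It was 1.20 without Control replicate 1, where Ifnar2 was no longer a DEG (limma adjusted p = 0.0528), and 1.66 without Control replicate 2 (limma adjusted p = 0.00931). The call was also lost without Model replicate 1 (limma adjusted p = 0.0614), without either MUS library (0.0594 each) and with only Model and Control fitted (0.0578). Ifnar1 (ENSMUSG00000022967, chr16:91485238-91507441, plus strand) had 25.4 and 47.2 FPKM in Control, 61.0 and 91.5 FPKM in Model, and 76.2 and 85.4 FPKM in MUS. On this scale Control was below Model and MUS, which overlapped each other, but replicates differed more than for Ifnar2, and the log2 fold change of 1.08 in Model vs. Control missed the threshold (standard error 0.39, limma adjusted p = 0.0987). Ifnar1 was a DEG without Control replicate 2 (log2 fold change 1.52, limma adjusted p = 0.0280). Ifnar1 exceeded Ifnar2 in each library, by 1.74 and 2.31 times for Control, 1.25 and 1.90 times for Model, and 1.49 and 1.70 times for MUS. The Model ratios overlapped those of both other groups, and the MUS ratios were below the Control ratios.

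Ifngr1 and Ifngr2 encode the ligand-binding chain and the signalling chain of the interferon gamma receptor, which carry JAK1 and JAK2. Ifngr1 (ENSMUSG00000020009, chr10:19591949-19610229, plus strand) had 44.2 and 53.1 FPKM in Control, 21.5 and 21.1 FPKM in Model, and 22.2 and 22.7 FPKM in MUS. It was the most abundant of the 10 genes in Control by mean and the ninth in Model, and no Control library overlapped a Model or MUS library. Model vs. Control gave a log2 fold change of -1.15 with a standard error of 0.25 (limma adjusted p = 0.0245). Ifngr1 was a DEG without either Control library (-1.28 without replicate 1, -1.02 without replicate 2). It was not a DEG without Model replicate 1 (limma adjusted p = 0.0720), without Model replicate 2 (0.0574), without either MUS library (0.0830 and 0.0831) or with only Model and Control fitted (0.0865). Ifngr2 (ENSMUSG00000022965, chr16:91547072-91565623, plus strand) had 35.9 and 32.9 FPKM in Control, 60.7 and 35.9 FPKM in Model, and 28.9 and 35.9 FPKM in MUS. Only Model replicate 1 was clearly apart, and the log2 fold change of 0.43 in Model vs. Control (limma adjusted p = 0.389) turned to -0.10 with fragment-total scaling and to -0.20 with quantile normalization. The ratio of Ifngr1 to Ifngr2 within a library, which does not depend on how libraries are scaled, was 1.23 and 1.61 for Control, 0.355 and 0.587 for Model, and 0.768 and 0.632 for MUS. Ifngr1 was therefore above Ifngr2 in both Control libraries and below it in the other 4 libraries.

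Il10ra and Il10rb encode the chains of the receptor for IL-10, a cytokine that restrains macrophage activation. Il10ra (ENSMUSG00000032089, chr9:45253837-45269149, minus strand), the chain specific to IL-10, had 16.5 and 20.0 FPKM in Control, 40.7 and 39.7 FPKM in Model, and 25.5 and 30.0 FPKM in MUS. On this scale the MUS libraries lay between those of Control and Model, whereas per fragment total MUS overlapped Control. Between Model and Control the log2 fold change was 1.10 with a standard error of 0.26 (limma adjusted p = 0.0297). It was 0.97 without Control replicate 1, where Il10ra was no longer a DEG (limma adjusted p = 0.102), and 1.23 without Control replicate 2. The call was also lost without either Model library (limma adjusted p = 0.0883 and 0.0610), without either MUS library (0.0889 and 0.0884) and with only Model and Control fitted (0.0899). Il10rb (ENSMUSG00000022969, chr16:91406164-91425834, plus strand), the shared chain, had 31.5 and 21.8 FPKM in Control, 44.2 and 38.6 FPKM in Model, and 44.2 and 46.5 FPKM in MUS. The log2 fold change of 0.63 in Model vs. Control did not pass the test (limma adjusted p = 0.172), and it was 0.10 with fragment-total scaling and 0.07 with quantile normalization. The Model and MUS libraries were above those of Control on the deposited scale, but per fragment total both groups overlapped Control. Within a library, Il10ra over Il10rb was 0.525 and 0.916 for Control, 0.920 and 1.03 for Model, and 0.576 and 0.645 for MUS, so the MUS ratios were below the Model ratios.

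Il4ra and Il13ra1 encode the chains that together form the type II receptor, which binds IL-4 and IL-13, while Il4ra pairs with the common gamma chain in the type I receptor for IL-4. Il13ra1 (ENSMUSG00000017057, chrX:36112110-36171259, plus strand) had 7.55 and 16.2 FPKM in Control, 48.0 and 54.3 FPKM in Model, and 71.3 and 59.4 FPKM in MUS. These are group means of 11.9 ± 6.13, 51.1 ± 4.50 and 65.4 ± 8.41 FPKM (SD, n = 2 each), and none of the groups overlapped. The log2 fold change between Model and Control, 2.10 with a standard error of 0.37 (limma adjusted p = 0.0125), was the largest of the 10 genes. It was 1.59 without Control replicate 1 and 2.61 without Control replicate 2, and Il13ra1 was a DEG in both cases (limma adjusted p = 0.0297 and 0.00274). It was not a DEG without Model replicate 1 (limma adjusted p = 0.0588) or without Model replicate 2 (0.0523).

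Il4ra (ENSMUSG00000030748, chr7:125552120-125579474, plus strand) had 5.53 and 9.02 FPKM in Control, 26.4 and 32.7 FPKM in Model, and 16.5 and 24.4 FPKM in MUS. The MUS libraries were again between those of Control and Model. Model vs. Control gave a log2 fold change of 1.91 with a standard error of 0.32 (limma adjusted p = 0.0106). It was 1.60 without Control replicate 1 and 2.22 without Control replicate 2, and Il4ra was a DEG without any 1 of the 6 libraries. When low values were not filtered out, Il4ra was not a DEG (limma adjusted p = 0.0756). Il2rg, which encodes the common gamma chain, had 19.1 and 32.9 FPKM in Control, 32.2 and 39.7 FPKM in Model, and 52.3 and 48.5 FPKM in MUS, with a log2 fold change of 0.50 in Model vs. Control (limma adjusted p = 0.327). The ratio of Il4ra to Il2rg was 0.290 and 0.275 for Control, 0.821 and 0.823 for Model, and 0.315 and 0.502 for MUS. Both Model libraries were above the other 4 libraries in this ratio. The ratio of Il4ra to Il13ra1 was 0.732 and 0.556 for Control, 0.551 and 0.602 for Model, and 0.231 and 0.410 for MUS, lowest in the MUS libraries.

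Il6ra encodes the chain that binds IL-6 and then recruits gp130, the signalling chain encoded by Il6st. Il6ra (ENSMUSG00000027947, chr3:89864059-89913196, minus strand) had 8.85 and 4.43 FPKM in Control, 1.21 and 2.10 FPKM in Model, and 1.148 and 1.845 FPKM in MUS. It was the least abundant of the 10 genes in each group by mean, and both Control libraries were above the other 4. The fragments behind these values were 1749 and 875 for Control, 147 and 281 for Model, and 150 and 259 for MUS. Model vs. Control gave a log2 fold change of -1.48 (standard error 0.34, limma adjusted p = 0.0290), and it was -1.05 without Control replicate 1, where the call was lost (limma adjusted p = 0.133), and -1.91 without Control replicate 2. It was also lost without either Model library (limma adjusted p = 0.131 and 0.0528), without either MUS library (0.0633 and 0.0632) and with only Model and Control fitted (0.0631). Because 1 was added to FPKM, this fold change understates that of the group means, which were 6.64 ± 3.13 FPKM in Control and 1.65 ± 0.632 FPKM in Model (SD, n = 2 each). Il6st had 12.5 and 9.34 FPKM in Control, 3.33 and 6.77 FPKM in Model, and 6.60 and 7.13 FPKM in MUS, and its log2 fold change of -1.03 in Model vs. Control did not pass the test (limma adjusted p = 0.0689). The ratio of Il6ra to Il6st was 0.707 and 0.474 for Control, 0.362 and 0.310 for Model, and 0.174 and 0.259 for MUS, with the 3 groups apart.

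Il17ra encodes the chain that all known receptors of the IL-17 family share. Il17ra (ENSMUSG00000002897, chr6:120463247-120487559, plus strand) had 6.92 and 11.2 FPKM in Control, 27.3 and 38.5 FPKM in Model, and 31.8 and 39.0 FPKM in MUS. All Model and MUS libraries were above both Control libraries, while Model and MUS overlapped. Between Model and Control the log2 fold change reached 1.77, with a standard error of 0.32 (limma adjusted p = 0.0134). Without Control replicate 1 it was 1.46 and just missed the threshold (limma adjusted p = 0.0529), as it did without Model replicate 2 (0.0521), and without Control replicate 2 it was 2.08. Il17rc, whose product pairs with IL-17RA to bind IL-17A, was between 0.115 and 0.314 FPKM in the 6 libraries and was not tested.

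Batch numbers in the sample labels equal replicate numbers, which allows comparisons within a batch. In Model vs. Control, the log2 difference of Il13ra1 was 2.52 in batch 1 and 1.68 in batch 2. Il4ra differed by 2.07 and 1.75, Il17ra by 1.84 and 1.70, Ifnar2 by 1.67 and 1.19, and Il10ra by 1.25 and 0.95. Il6ra differed by -2.16 and -0.81 and Ifngr1 by -1.005 and -1.292. Each of the 7 DEGs had the same direction in both batches. This had to follow, as their Model and Control libraries did not overlap. The difference was smaller in batch 2, which holds Control replicate 2, for 6 of these 7 genes, and Ifngr1 was the exception.

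The scale of the table affects the Control libraries more than the others. The library scale behind the deposited FPKM was 1.45 and 1.34 times the recovered fragment totals in Control, but 0.909 and 0.998 times in Model and 0.932 and 0.986 times in MUS. When libraries were rescaled to their fragment totals, the median log2 fold change of all genes moved from 0.04 to -0.40 in Model vs. Control and from 0.04 to -0.39 in MUS vs. Control. The DEGs of all genes in Model vs. Control were then 646 upregulated and 1554 downregulated, in place of 930 and 545, and 707 and 715 with quantile normalization. In MUS vs. Control they were 738 and 1953 with fragment-total scaling and 885 and 1102 with quantile normalization, in place of 1107 and 873. Among the receptor genes, Ifnar2 (log2 fold change 0.91) and Il10ra (0.58) were no longer DEGs with fragment-total scaling, which was 1.31 and 0.98 above the shifted median, and the same genes (0.97 and 0.65) were lost with quantile normalization. Median-of-ratios scaling kept all 7 receptor DEGs (Ifnar2 1.38, Il10ra 1.04) and gave 890 upregulated and 609 downregulated DEGs among all genes. With fragment-total scaling, Il13ra1 (1.59), Il4ra (1.42) and Il17ra (1.27) were still upregulated DEGs, and Ifngr1 (-1.69) and Il6ra (-1.94) were still downregulated DEGs. Relative to the shifted median, these values were 1.99, 1.82, 1.67, -1.28 and -1.54. Ifngr2, at -0.10, was 0.30 above that median. The median log2 fold change of the receptor genes in Model vs. Control was 0.56 with fragment-total scaling and 0.54 with quantile normalization, in place of 1.09. Per fragment total, Model libraries were above both Control libraries for 5 receptor genes, as for 15.6% of all genes tested, and below both for 2, as for 53%, with Ifnar1, Il10rb and Ifngr2 overlapping. In MUS vs. Control the counts were 5, as for 21% of all genes, and 3, as for 57.2%, and the median log2 fold change was 0.46 with fragment-total scaling and 0.40 with quantile normalization. In MUS vs. Control, fragment-total scaling removed the calls of Ifnar2 (0.98) and Il4ra (0.90), and quantile normalization removed none.

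MUS vs. Model asks what muscone changed in cells given LPS and ATP. None of the 10 receptor genes was a DEG in either direction, where 0% of all genes tested were upregulated and 0% were downregulated DEGs. The paper reports DEGs for this comparison, mostly downregulated, from DESeq2 at the same thresholds. DESeq2 was not run here, so the absence of DEGs is that of the fits used here. Across all genes the smallest limma adjusted p was 0.139, while 825 genes, and 0 of the 10 receptor genes, had an unadjusted p under 0.05. With voom on the recovered fragments, 0 genes were DEGs as well. The median log2 fold change of the receptor genes was 0.07, and 0.01 for all genes tested. Both MUS libraries were above both Model libraries for 4 receptor genes (Ifnar2, Ifngr1, Il10rb and Il13ra1), as for 21.2% of all genes tested, and below both for 3 (Ifngr2, Il10ra and Il4ra), as for 21% of all genes. Per fragment total, Il10rb and Il13ra1 were above and the same 3 genes below, while Ifnar2 and Ifngr1 overlapped, where 20.6% and 21% of all genes were apart.

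The largest differences between MUS and Model among these genes were decreases in value that did not pass the test. Il4ra had a log2 fold change of -0.53 (95% interval -1.29 to 0.23, limma adjusted p = 0.727). Ifngr2 had -0.52 (95% interval -1.30 to 0.25, limma adjusted p = 0.734), and for Ifngr2 the difference was -1.05 in batch 1 and -0.00 in batch 2, as Model replicate 2 and MUS replicate 2 both had 35.9 FPKM. Il10ra also had -0.52 (95% interval -1.13 to 0.08, limma adjusted p = 0.668), with differences of -0.65 in batch 1 and -0.39 in batch 2. For Il13ra1 the value was 0.35 (95% interval -0.54 to 1.23, limma adjusted p = 0.865), with 0.56 and 0.13 in the batches. The other 6 genes had log2 fold changes between -0.08 and 0.13, and the intervals of Ifnar2 (-0.59 to 0.71) and Ifngr1 (-0.52 to 0.66) were among the narrowest. Each of these intervals includes 0 as well as changes in both directions.

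MUS vs. Control shares its Control libraries with Model vs. Control and its MUS libraries with MUS vs. Model, so its values are given beside theirs and are not separate evidence. Upregulated DEGs were 4 of the 10 receptor genes, against 11.3% of the genes tested, and downregulated DEGs were 2, against 8.91%. The libraries were apart and higher in MUS for 7 receptor genes, as for 39.6% of all genes, and apart and lower for 2, as for 33.8%. The log2 fold changes were 2.45 for Il13ra1 (limma adjusted p = 0.00637), 1.88 for Il17ra (0.00873), 1.496 for Ifnar2 (0.0110), 1.38 for Il4ra (0.0237), -1.08 for Ifngr1 (0.0237) and -1.56 for Il6ra (0.0194). Il10ra, with 0.58 (limma adjusted p = 0.141), or 0.06 with fragment-total scaling and 0.20 with quantile normalization, was not a DEG here, and its difference between the comparisons is the MUS vs. Model value above. Ifnar1 had 1.19 (limma adjusted p = 0.0626) and became a DEG with the replicate number as a block and without Control replicate 2. Ifngr2 had -0.09 (limma adjusted p = 0.861). Without Control replicate 1, Il4ra (limma adjusted p = 0.0991) and Il6ra (0.0846) were no longer DEGs, and without Control replicate 2 Ifngr1 (-0.95) was not. Without MUS replicate 1, 0 of the 10 genes were DEGs, and without MUS replicate 2, 1 was, while DEGs among all genes went from 1980 to 184 and 719.

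**Figure D2:**
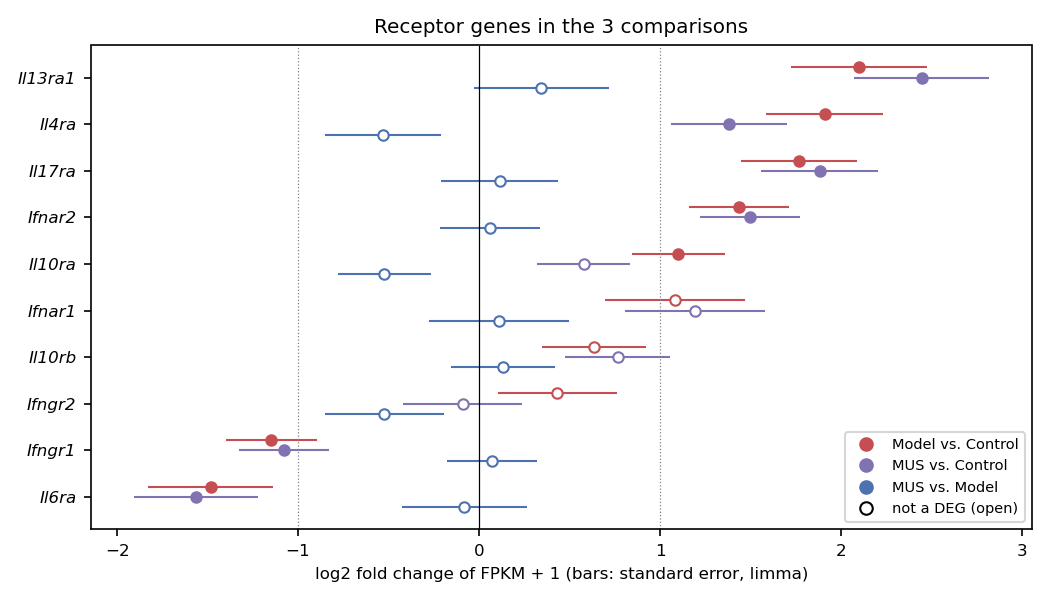
Log2 fold change of FPKM + 1 (x axis) for the 10 receptor genes (y axis) in Model vs. Control, MUS vs. Control and MUS vs. Model, with bars for the limma standard error, filled points for DEGs and dotted lines at -1 and 1. In MUS vs. Model all points are open, and Ifngr2 in Model vs. Control (0.43) falls below 0 with fragment-total scaling (-0.10) and quantile normalization (-0.20).

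The order of the 10 genes by mean FPKM differed between the groups. In Control it ran from Ifngr1 (48.6 FPKM), Ifnar1 (36.3) and Ifngr2 (34.4) through Il10rb, Il10ra, Ifnar2, Il13ra1, Il17ra and Il4ra to Il6ra (6.64). Neighbours in this order overlapped between single libraries except at the steps from Ifngr2 to Il10rb and from Il10rb to Il10ra. In Model it began with Ifnar1 (76.2 FPKM), which was above Il13ra1 (51.1) in both libraries, and ended with Il4ra (29.5), Ifngr1 (21.3) and Il6ra (1.65), which were apart. Among the genes from Il13ra1 to Il10ra, neighbours overlapped with each other, as did Il17ra and Il4ra. In MUS the first 5 places were those of Ifnar1 (80.8 FPKM), Il13ra1 (65.4), Ifnar2 (50.6), Il10rb (45.4) and Il17ra (35.4), of which the first 4 were apart from the next, while Il17ra overlapped Ifngr2.

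Ifnar2, Il10rb, Ifnar1 and Ifngr2 lie in this order on the plus strand of chromosome 16 and together span 193 kb. Of these only Ifnar2 was a DEG in Model vs. Control. Among the 28 other genes of the table within 250 kb, 6 were tested (Tmem50b, Gart, Son, Donson, Cryzl1 and Itsn1), and 0 of them were DEGs in any of the 3 comparisons. Their median in Model vs. Control was -0.05 as log2 fold change. Tmem50b, next to Ifngr2, had 30.9 and 35.9 FPKM in Control and 50.2 and 48.4 FPKM in Model (log2 fold change 0.55, limma adjusted p = 0.184), and Itsn1 had 3.26 and 3.04 FPKM in Control and 1.18 and 1.96 FPKM in Model (-0.71, limma adjusted p = 0.0767). The gene Gm21970, which is on the same strand and listed at 0 in each library, shares 9.46% of the exon bases of Ifnar2 and 14.9% of those of Il10rb. Antisense genes cover 9.51% of the exon bases of Il4ra and 2.80% of those of Il6ra, and fragments from these stretches cannot be told apart without strand, which is not given in the sources used here.

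Of 32 other chains of cytokine receptors, 14 were tested, and 2 were upregulated DEGs in Model vs. Control, against 9.5% of all genes tested. The median log2 fold change of the 14 chains was 0.06. Il15ra, the chain that presents IL-15, had 0.630 and 2.15 FPKM in Control and 31.3 and 28.9 FPKM in Model (log2 fold change 3.78, limma adjusted p = 0.00157). Il2ra, the high-affinity chain for IL-2, had 0 and 0.0995 FPKM in Control and 1.77 and 1.90 FPKM in Model (1.44, limma adjusted p = 0.00743), and it reached the filter only through Model and MUS. In MUS vs. Control, 3 chains were upregulated and 2 were downregulated DEGs, against 11.3% and 8.91% of all genes tested. These counts were 2 and 1 without Control replicate 1 and 4 and 1 without Control replicate 2, and Il20rb was lost with fragment-total scaling. The decreases were those of Crlf2, a chain of the receptor for TSLP, with 92.3 and 92.9 FPKM in Control, 104 and 83.8 FPKM in Model, and 25.9 and 38.9 FPKM in MUS, and Csf2ra, the GM-CSF receptor alpha chain, with 205 and 205 FPKM in Control, 164 and 208 FPKM in Model, and 67.5 and 112 FPKM in MUS. Their log2 fold changes in MUS vs. Control were -1.51 (limma adjusted p = 0.0167) and -1.23 (0.0480), and in MUS vs. Model they were -1.52 (0.321) and -1.08 (0.475).

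Of the 13 ligands listed for these receptors, 5 were tested. In Model vs. Control 4 of them were upregulated DEGs, against 9.5% of all genes tested. All 5 tested ligands were under 1 FPKM in both Control libraries and reached the FPKM filter only through Model and MUS. The filter thus left only ligands that could be higher there. Il6 had 0.0901 and 0.864 FPKM in Control and 917 and 454 FPKM in Model (log2 fold change 8.82, limma adjusted p = 0.000504), while its receptor chain Il6ra was a downregulated DEG. Il10 had 0.134 and 0.167 FPKM in Control and 22.9 and 13.8 FPKM in Model (4.03, limma adjusted p = 0.00107), and Il10ra was an upregulated DEG. Il22 and Il17a, the other upregulated ligands, were at most 2.72 and 3.15 FPKM in any library. Ifnb1 was listed at 0 in both Control libraries and had 3.02 and 0.688 FPKM in Model (limma adjusted p = 0.0595). Ifna1, Ifna2, Ifna4 and Ifna5 were listed at 0 in each library, and Il13, Ifng and Il17f were below the filter, as was Il4, with 3.07 and 0.748 FPKM in Control and at most 0.462 FPKM elsewhere.

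Among 14 kinases, STATs and adaptors, 13 were tested and 6 were upregulated DEGs in Model vs. Control, against 9.5% of all genes tested. The median log2 fold change of the 13 was 0.66. Jak2, which is carried by IFN-γR2, had 9.77 and 38.3 FPKM in Control, 160 and 223 FPKM in Model, and 273 and 208 FPKM in MUS (log2 fold change 3.21 in Model vs. Control, limma adjusted p = 0.0142). Stat2, which acts below the type I interferon receptor, had 3.23 and 12.4 FPKM in Control and 47.5 and 87.1 FPKM in Model (3.12, limma adjusted p = 0.0129). The kinases carried by IFNAR2 and IFNAR1 did not pass in that comparison. Jak1 had 36.0 and 41.8 FPKM in Control and 59.7 and 64.4 FPKM in Model (0.66, limma adjusted p = 0.141), and Tyk2 had 5.86 and 9.26 FPKM in Control and 4.57 and 8.61 FPKM in Model (-0.20, limma adjusted p = 0.704). In MUS vs. Control, 7 of the 13 were upregulated DEGs, against 11.3% of all genes tested. Among them was Jak1 (1.10, limma adjusted p = 0.0290), which was not a DEG with fragment-total scaling or quantile normalization.

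Of 15 genes that restrain these receptors, 13 were tested. In Model vs. Control 5 were upregulated and 0 were downregulated DEGs, against 9.5% and 5.56% of all genes tested. Of these 5, Socs1 and Cish had Control means under 1 FPKM and reached the filter only through Model and MUS, and Ptpn2 was lost with fragment-total scaling. Fewer of the restraining genes were upregulated DEGs without Control replicate 1, and a downregulated DEG appeared without Control replicate 2. Usp18, which binds IFNAR2 and dampens its signal, had 1.76 and 7.74 FPKM in Control, 351 and 241 FPKM in Model, and 252 and 241 FPKM in MUS (log2 fold change 5.89 in Model vs. Control, limma adjusted p = 0.00181). Socs3, an inhibitor of gp130 signalling, had 3.30 and 13.6 FPKM in Control, 380 and 374 FPKM in Model, and 102 and 169 FPKM in MUS (5.58, limma adjusted p = 0.00255). Socs1, an inhibitor of JAK kinases below both interferon receptors, had 0.421 and 1.05 FPKM in Control, 11.99 and 9.90 FPKM in Model, and 2.46 and 3.13 FPKM in MUS (2.80, limma adjusted p = 0.00180). In MUS vs. Model the values of Socs3 and Socs1 were lower without overlap, at -1.51 (limma adjusted p = 0.537) and -1.65 (0.257), and neither passed the test. Il10ra and Il4ra, lower without overlap in the same comparison, differed by less.

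Genes that these receptors are known to induce were followed as lists, most of which are also induced by LPS itself. All 8 type I interferon targets were upregulated DEGs in Model vs. Control, with a median log2 fold change of 6.52. Rsad2 had the largest value, 7.01 (limma adjusted p = 0.00488), followed by Isg15 with 6.80 (limma adjusted p = 0.00525). The 8 were also DEGs without either Control library, which held different levels of them. Of 7 tested targets of interferon gamma, 6 were upregulated DEGs with a median of 3.28, led by Nos2 (6.34, limma adjusted p = 0.000504) and Gbp2 (3.96, limma adjusted p = 0.0285). The other listed target, Ciita, was below the filter. It had 0.968 and 1.76 FPKM in Control and 0.438 and 0.494 FPKM in Model. Of 7 tested targets of IL-4 and IL-13, 3 were upregulated DEGs with a median of 0.57, among them Ccl22 (2.90, limma adjusted p = 0.00322) and Ccl24 (2.05, limma adjusted p = 0.00865).

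Of 6 tested targets of IL-10 and IL-6, 4 were upregulated DEGs in Model vs. Control (median log2 fold change 1.74), and Socs3 is counted among them and among the restraining genes, as Socs1 is among the interferon gamma targets and the restraining genes. Il1rn, the IL-1 receptor antagonist, had 4.36 (limma adjusted p = 0.00126), and Nfil3 had 2.23 (0.00944). All 7 IL-17 targets were upregulated DEGs with a median of 4.63, led by Il6 and by the chemokine gene Cxcl1 (5.14, limma adjusted p = 0.0277). Il6 is also counted among the ligands. Of the DEGs in these 5 lists, Nos2, Socs1, Ccl17, Ccl22, Lcn2, Csf3 and Il6 had Control means under 1 FPKM and reached the filter only through Model and MUS, so they could only be called upregulated. Gbp2, Ccl17, Sbno2 and Cxcl1 were not DEGs in Model vs. Control with quantile normalization, and Sbno2 was not with fragment-total scaling. In MUS vs. Model, 0 genes of these 5 lists were DEGs. The medians there were 0.40 for type I interferon targets, 0.13 for interferon gamma targets, -0.13 for IL-4 and IL-13 targets, -0.17 for IL-10 and IL-6 targets and -0.15 for IL-17 targets, where that of all genes was 0.01. In MUS vs. Control the upregulated DEGs numbered 8 of 8, 6 of 7, 2 of 7, 3 of 6 and 7 of 7 in the same order, against 11.3% of all genes tested. Of the DEGs in these lists, Socs1 and Ccl24 were lost with fragment-total scaling, and Cxcl1 was lost with quantile normalization.

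The label of the cells was compared with markers of macrophages and of other peritoneal cells. All 8 macrophage markers passed the FPKM filter, with summed levels of 11961 and 13746 FPKM in Control, 14283 and 9574 FPKM in Model, and 13236 and 11397 FPKM in MUS, mostly from Lyz2. In Model vs. Control, where 9.5% of all genes tested were upregulated and 5.56% downregulated DEGs, 3 of the 8 were DEGs. Csf1r was downregulated (log2 fold change -1.37, limma adjusted p = 0.0289), and Cd14 (2.64, 0.0258) and Fcgr1 (3.57, 0.00326) were upregulated. Without Control replicate 1 the counts were 1 upregulated and 1 downregulated, and Cd14 was lost with quantile normalization. All 8 markers of T and NK cells were under 1 FPKM in each library, with Cd5 as the most abundant at a mean of 0.0655 FPKM, and their sum was between 0.154 and 0.483 FPKM. The same held for all 6 mast cell markers, led by Cma1, with sums between 0.234 and 1.17 FPKM. Of 7 B cell markers, Cd22 alone passed, and the sums were 13.3 and 7.92 FPKM in Control, 4.31 and 5.24 FPKM in Model, and 3.99 and 4.78 FPKM in MUS. Cd22 was the most abundant of them, at a mean of 5.17 FPKM, and a downregulated DEG in Model vs. Control (log2 fold change -1.34, limma adjusted p = 0.0216).

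Of 8 neutrophil markers, 4 were listed at 0 in each library, including Ly6g and S100a9, and S100a8 alone passed. Their sums were 13.8 and 30.7 FPKM in Control, 110 and 56.5 FPKM in Model, and 64.0 and 50.3 FPKM in MUS. S100a8 made up nearly all of each sum, the other markers were under 1 FPKM in each library, and their part in the differences of the receptor genes was not tested. Of 4 eosinophil markers, Ear2 alone passed, with sums between 1.90 and 4.74 FPKM. Of 6 dendritic cell markers, Ccr7 alone passed, with sums of 1.52 and 2.50 FPKM in Control, 7.24 and 7.33 FPKM in Model, and 5.82 and 8.35 FPKM in MUS. Ccr7 made up most of the sums in Model and MUS. Among the other dendritic cell markers, Xcr1, Zbtb46 and Flt3 had higher means in Model than in Control, and Cd209a and Clec9a had lower means. Of 8 mesothelial and fibroblast markers, 5 passed, led by Col1a1, with sums between 14.4 and 26.3 FPKM. S100a8 (log2 fold change 1.90, limma adjusted p = 0.0365), Ccr7 (1.97, 0.00683) and Dcn (1.18, 0.0161) were upregulated DEGs in Model vs. Control, of which S100a8 and Dcn were lost with fragment-total scaling and S100a8 with quantile normalization. Ccr7 reached the filter only through Model and MUS. Without Control replicate 1, Cd22, S100a8 and Dcn were not DEGs.

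For the 3 receptor genes with the largest absolute log2 fold change in Model vs. Control, the genes nearest in pattern were sought by the Euclidean distance of log2(FPKM + 1) over the 6 libraries, after centring each gene on its mean. Nearest to Il17ra were Pgs1 (distance 0.14), Notch2 (0.27) and Rnf225 (0.33). Pgs1 had 5.95 and 10.2 FPKM in Control, 26.8 and 34.5 FPKM in Model, and 28.2 and 33.9 FPKM in MUS, close to Il17ra in level as well. Nearest to Il13ra1 were Clic4 (0.28), Dcp2 (0.29) and Lrrc8c (0.29), and nearest to Il4ra were Fcrlb (0.35), Csf1 (0.39) and Acvr1b (0.39). Csf1, which encodes the macrophage growth factor, had 2.61 and 4.83 FPKM in Control, 19.3 and 19.3 FPKM in Model, and 10.9 and 12.9 FPKM in MUS. Its highest values were in Model, as those of Il4ra were, which follows from choosing it by pattern.

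Promoter sequences from RefSeq (GRCm38.p6, 250 bases before to 50 bases after the RefSeq start) matched 7 of the 10 genes, namely Ifnar1, Ifnar2, Ifngr1, Ifngr2, Il13ra1, Il4ra and Il6ra. These windows and 5 motifs, sought on both strands, were chosen after the expression values were seen. The GAS element TTCNNNGAA, the letters bound by STAT dimers, was in Ifnar1 and Ifnar2 and in 8.30% of the 32851 promoters of the table. The interferon-stimulated response element was in 0 of the 7 and in 3.44% of all promoters. The NF-κB consensus was in Ifngr2 and Il4ra and in 8.46% of all promoters, and the PU.1 letters GAGGAA were in Ifnar1 and Il6ra and in 28.3%. The GC box GGGCGG was in 6 of the 7, all but Il6ra, and in 35.7% of all promoters. A match describes letters in a window and not a bound site.

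The parts of these windows upstream of the gene start are shown for Ifnar2, the DEG with a GAS match, and for Ifngr1 and Ifngr2, the chains whose ratio turned over between Control and the other groups. They are also shown for Il13ra1 and Il6ra. In Model vs. Control these had the largest increase and the largest decrease on the deposited scale with all 6 libraries. With quantile normalization, Ifngr1 (-1.74) decreased more than Il6ra (-1.51). Capitals mark matches to the 5 motifs, which are the GAS letters in Ifnar2, GC boxes in Ifngr1 and Il13ra1, the NF-κB match followed by GC boxes in Ifngr2, and the PU.1 letters on the opposite strand in Il6ra. A GC box of Ifnar2 that crosses the gene start is left in lower case. Some GC boxes of Ifngr2 and Il13ra1 overlap or adjoin each other. Each is given 5′ to 3′ on the strand of the gene.
Ifnar2, chr16:91372533-91372782, plus strand: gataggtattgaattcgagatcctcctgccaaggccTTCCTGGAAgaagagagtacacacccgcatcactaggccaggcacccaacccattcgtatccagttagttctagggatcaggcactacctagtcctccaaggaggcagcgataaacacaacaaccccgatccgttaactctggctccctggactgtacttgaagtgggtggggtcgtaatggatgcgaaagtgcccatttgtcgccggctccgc
Ifngr1, chr10:19591699-19591948, plus strand: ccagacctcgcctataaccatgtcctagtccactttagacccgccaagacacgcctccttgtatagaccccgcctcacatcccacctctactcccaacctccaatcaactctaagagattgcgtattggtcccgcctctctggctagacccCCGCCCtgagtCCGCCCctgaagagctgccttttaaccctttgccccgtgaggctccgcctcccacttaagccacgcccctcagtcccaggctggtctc
Ifngr2, chr16:91546809-91547058, plus strand: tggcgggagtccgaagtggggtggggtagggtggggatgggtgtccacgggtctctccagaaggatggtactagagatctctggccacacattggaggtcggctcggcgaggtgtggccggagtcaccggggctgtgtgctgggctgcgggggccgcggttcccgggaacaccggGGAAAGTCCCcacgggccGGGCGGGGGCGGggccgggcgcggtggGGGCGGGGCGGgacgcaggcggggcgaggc
Il13ra1, chrX:36111858-36112107, plus strand: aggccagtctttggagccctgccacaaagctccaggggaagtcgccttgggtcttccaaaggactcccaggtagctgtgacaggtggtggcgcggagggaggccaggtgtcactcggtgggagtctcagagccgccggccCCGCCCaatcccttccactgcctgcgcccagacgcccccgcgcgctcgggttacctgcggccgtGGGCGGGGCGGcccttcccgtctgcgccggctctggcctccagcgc
Il6ra, chr3:89913197-89913446, minus strand: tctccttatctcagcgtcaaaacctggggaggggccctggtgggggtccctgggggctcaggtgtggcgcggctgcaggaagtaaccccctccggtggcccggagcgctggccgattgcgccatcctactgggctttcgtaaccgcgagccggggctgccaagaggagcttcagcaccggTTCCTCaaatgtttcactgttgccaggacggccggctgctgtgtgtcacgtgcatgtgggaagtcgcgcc

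These results describe RNA levels in 6 libraries, and receptor protein, ligand binding and signalling were not measured here. The Control libraries differed from each other in interferon and IL-17 targets, and the counts of receptor DEGs depended on which of them was used. With 2 libraries a group, the absence of DEGs in MUS vs. Model does not show that the groups were equal, as the 95% interval of Il4ra reached from -1.29 to 0.23. Whether a change in a receptor gene followed from LPS, from ATP or from cytokines released in culture was not tested, as no group received LPS or ATP alone.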

How the data were processed

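The authors deposited FPKM for 54532 genes in 6 libraries of poly-A RNA. The paper's methods name RSEM for FPKM and DESeq2 for DEGs, whereas the submitters' processing notes name HISAT2, featureCounts 1.5.0-p3 and GRCm39. The positions given for genes match GRCm38, as 98.3% of the 54409 identifiers also found in GENCODE M21, and all 10 receptor genes, have the same start and end there. FPKM times gene length was a whole multiple of 1 step per library (100% of values above 0, within a tolerance of 0.1 of the step), which gave fragments per gene and covers counting error only. The library scale of the FPKM is not described in the sources used here, and the paper's supplementary table was not used here. The table has 0 columns without a sample. The gene lengths used are those deposited in the same table, in bases.

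limma 3.58.1 in R 4.3.3 was fitted to log2(FPKM + 1) for 9794 genes whose mean FPKM reached 1, using all 6 libraries as 3 groups, a mean-variance trend and Benjamini-Hochberg adjustment over all genes tested. This left 3 residual and 4.04 prior degrees of freedom. DESeq2 was not run here. The fit was tested on simulated data. Python 3.11.15, NumPy 2.4.6, pandas 2.3.3 and Matplotlib 3.10.9 prepared the values and plots. Nothing says that the libraries came from separate animals or cultures, so p-values measure only the spread between these libraries, which may be technical.

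The labels give the replicate number as batch, which pairs libraries across groups. Differences between replicates correlated across genes with r = 0.12 (Control and Model), 0.14 (Model and MUS) and -0.09 (Control and MUS), and the block was used as an alternative. Other alternatives changed the pseudocount, the filter, the scaling, the libraries fitted and the test.

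The receptor genes and the gene lists were chosen with earlier results of these data known. From each list, at most the 2 largest increases and 2 largest decreases among DEGs of a comparison were named, together with Il6st, Il2rg, Il17rc, Jak1, Jak2, Tyk2, Socs1, Socs3, Usp18, the tested neighbours of the chromosome 16 genes and the genes nearest in pattern. Other genes named were chosen after their values were seen. Protein motifs of the receptors were not analysed here.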

Additional observations from a re-analysis of the deposited data

How the results depend on the processing

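Of the 10 receptor genes, 7 were DEGs in Model vs. Control, 0 in MUS vs. Model and 6 in MUS vs. Control. When low values were not filtered out and 30192 genes were tested, these counts were 0, 0 and 0, and the counts over all genes were 260 in Model vs. Control and 456 in MUS vs. Control, in place of 1475 and 1980. With only the 2 groups compared in the fit, 3 receptor genes and 797 genes in all were DEGs in Model vs. Control, and 7 genes in all in MUS vs. Model. With a pseudocount of 0.1, 1 gene was a DEG in MUS vs. Model. With the replicate block, the paired fit, 4 genes were DEGs in MUS vs. Model, and Ifnar1 became a DEG in MUS vs. Control, while no other call of a receptor gene changed. A mean FPKM of at least 5 left Il6ra untested.

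Leaving out each library in turn gave between 2 and 8 receptor DEGs in Model vs. Control, 0 in MUS vs. Model and between 0 and 6 in MUS vs. Control, and a group left with 1 library was assumed to vary like the others. Over all genes the ranges were 692 to 2077, 0 to 31 and 184 to 2398. Model vs. Control gave 2 receptor DEGs without either Model library and 3 without Control replicate 1 or either MUS library, and MUS vs. Model gave 31 genes without Model replicate 2.

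Some directions changed. Ifngr2 in Model vs. Control was -0.10 with fragment-total scaling and -0.20 with quantile normalization, and in MUS vs. Control it was between -0.242 and 0.0607 with a library left out. In MUS vs. Model, with a library left out, Ifnar1 lay between -0.18 and 0.40, Il17ra between -0.13 and 0.36 and Il6ra between -0.33 and 0.16. Over the 17 alternatives (16 for Il6ra), the limma adjusted p of the 7 DEGs of Model vs. Control lay between 0.00274 and 0.158. Of 169 values in that comparison under an alternative, 129 kept call and direction, as did 164 of 169 in MUS vs. Model and 144 of 169 in MUS vs. Control. The causes were not tested.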
